A study of Mus musculus with 22 samples.

Results

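The genes described here are 10 components of the integrated stress response: the transcription factors Atf4, Atf3, Atf5, Ddit3 and Cebpb, and the response genes Asns, Trib3, Chac1, Sesn2 and Ppp1r15a. They were taken by name, each through the Ensembl identifier that the GENCODE annotation of the mouse build mm10 pairs with the symbol. All 10 were found in both deposited tables, among 49670 genes for the right ventricle (RV) and 49671 for the left ventricle (LV). In this response, kinases that sense nutrient shortage, unfolded protein, viral RNA or heme and mitochondrial stress phosphorylate the translation factor eIF2, which lowers general protein synthesis while the mRNA of Atf4 is translated more. The ATF4 protein then binds DNA as a dimer with C/EBP and other basic leucine zipper factors and activates genes for amino acid supply, redox balance and the dephosphorylation of eIF2. Because much of the control of ATF4 and ATF5 lies in translation, an mRNA level is only a partial measure of their activity, and neither protein nor eIF2 phosphorylation was measured here.

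Hearts came from CD1 mice, an outbred strain, operated on at postnatal day 1 and sampled 7 days later. The 6 nPAB mice had neonatal pulmonary artery banding against a 30G needle, which narrows the outflow of the RV and raises its load, and the 5 Sham mice had a sham operation. RNA from bulk RV myocardium and bulk LV myocardium was sequenced for each animal, so there were 22 libraries in 4 groups: RV nPAB (n = 6), RV Sham (n = 5), LV nPAB (n = 6) and LV Sham (n = 5). All carry batch label 1, and no genotype other than the strain is given. Libraries held 7.11 to 11.3 M counted reads, on average 9.47 ± 0.550 M in RV nPAB, 8.61 ± 1.29 M in RV Sham, 9.73 ± 1.22 M in LV nPAB and 8.10 ± 0.640 M in LV Sham (SD). Levels below are normalized counts, which are gene counts divided by a size factor for each library, and the RV and LV tables were normalized separately.

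Before any result, 2 animals need a remark. The sex-linked genes Xist and Ddx3y gave the same sex for the RV and LV library in 9 of the 11 mice and opposite sexes in nPAB mice 6 and 7, so by these genes the number in the title does not join libraries of 1 animal there. The tests of the members and the counts of genes called were also computed without these 2 mice, and the value is given where it matters. Results for the other gene lists, the cell type markers and the closest profiles include these 2 mice and were not computed without them. Defining markers of cardiomyocytes were high in every library, with a summed level of 421825 to 544201 in RV nPAB, 415967 to 513109 in RV Sham, 455475 to 635848 in LV nPAB and 442866 to 539886 in LV Sham. In bulk tissue, a change in the number of cells of a type and a change in RNA per cell cannot be told apart.

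Sequences near the transcription starts are shown for the 4 members that passed a test below, since these carry the results, and for the 3 further members with a match to a binding motif of this response. RefSeq promoters, which run from 250 bases before to 50 bases after a start, were found for all 10 members (11 promoters, since Atf5 has a pair). They were searched on both strands for TGATGNAA, the core of the C/EBP-ATF composite element that ATF4 dimers bind, for the palindromic cAMP response element TGACGTCA, and for the ER stress response element, which is CCAAT and CCACG with 9 bases of any kind between them. These motifs do not overlap each other in the members. Each sequence is written 5′ to 3′ on the strand of its gene, from build GRCm38.p6, and capitals mark a motif match in either orientation.
The 250 bases before the start of Atf3 are chr1:191183334-191183583 (minus strand), those of Ppp1r15a chr7:45526269-45526518 (minus strand), those of Atf4 chr15:80254934-80255183 (plus strand) and those of Cebpb chr2:167688665-167688914 (plus strand).
Atf3: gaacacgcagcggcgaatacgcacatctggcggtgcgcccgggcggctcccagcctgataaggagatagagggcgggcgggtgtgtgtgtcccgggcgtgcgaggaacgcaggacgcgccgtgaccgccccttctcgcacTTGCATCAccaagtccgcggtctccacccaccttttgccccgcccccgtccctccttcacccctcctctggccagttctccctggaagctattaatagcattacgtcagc
Ppp1r15a: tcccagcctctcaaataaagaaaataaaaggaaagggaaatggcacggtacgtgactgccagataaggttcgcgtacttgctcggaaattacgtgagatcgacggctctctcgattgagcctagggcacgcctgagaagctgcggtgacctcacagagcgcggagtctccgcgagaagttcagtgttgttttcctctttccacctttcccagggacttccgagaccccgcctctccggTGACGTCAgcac
Atf4: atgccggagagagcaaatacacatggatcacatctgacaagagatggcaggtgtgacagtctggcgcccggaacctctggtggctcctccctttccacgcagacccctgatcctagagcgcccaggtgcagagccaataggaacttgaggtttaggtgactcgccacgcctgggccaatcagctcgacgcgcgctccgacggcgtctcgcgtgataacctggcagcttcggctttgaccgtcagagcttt
Cebpb: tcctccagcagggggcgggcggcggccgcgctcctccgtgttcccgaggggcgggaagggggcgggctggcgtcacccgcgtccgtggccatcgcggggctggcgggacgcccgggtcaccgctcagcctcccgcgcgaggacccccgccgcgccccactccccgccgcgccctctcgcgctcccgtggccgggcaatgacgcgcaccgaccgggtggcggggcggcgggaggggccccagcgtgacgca
For Asns (chr6:7693214-7693243, minus strand), Chac1 (chr2:119351038-119351067, plus strand) and Trib3 (chr2:152344028-152344057, minus strand), 30 bases around the match are shown.
Asns: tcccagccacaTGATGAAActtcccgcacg
Chac1: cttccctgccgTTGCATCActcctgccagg
Trib3: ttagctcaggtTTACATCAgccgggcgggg

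The composite element matched in 4 of the 10 members, Asns, Atf3, Chac1 and Trib3, and in 3.97% of all 32851 RefSeq promoters of the same length. Counting the first transcribed base as 1 and the base before it as -1, it lay at -110 to -103 in Atf3, at -193 to -186 in Chac1, at -23 to -16 in Asns and at 15 to 22 in Trib3. The match was on the gene's own strand in Asns (TGATGAAA) and on the opposite strand in the other 3, which read TTGCATCA in Atf3 and Chac1 and TTACATCA in Trib3. The cAMP response element matched in 1 member, Ppp1r15a, at -12 to -5, and in 1.79% of all promoters. The ER stress response element matched in 0 members and in 0.119% of all promoters. No match for Atf4 and Cebpb says only that these letters are not in their windows, and the window of Cebpb is rich in G and C, with 81.6% of the 250 bases shown against 59.2% in Atf4, 65.2% in Atf3 and 54.4% in Ppp1r15a. The distances depend on the annotation. GENCODE bounds begin upstream of the RefSeq start used here by 34706 bases in Atf3, 45 in Asns and 13 in Chac1, and 28 bases downstream of it in Trib3, while both starts are the same in Atf4, Cebpb and Ppp1r15a.

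**Figure D1:**
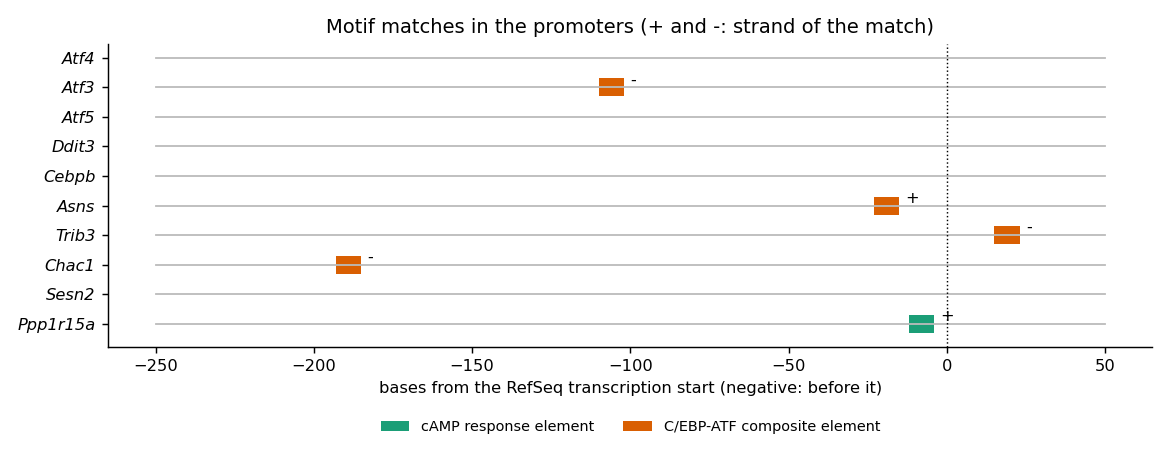
Position of each motif match in the promoter windows of the 10 genes, in bases from the RefSeq transcription start (dotted line, negative before it), with the strand of the match. The composite element is present in Atf3, Asns, Trib3 and Chac1, and the cAMP response element in Ppp1r15a.

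Levels differed widely among the members. Compared per kilobase of exon, so that genes of unequal length can be set side by side, Atf4 was the highest in all 4 groups. It averaged 289 ± 31.9 normalized counts per kb in RV nPAB, 217 ± 10.1 in RV Sham, 288 ± 36.3 in LV nPAB and 228 ± 25.8 in LV Sham (SD, n = 6 or 5), and its libraries did not overlap those of the next gene in any group. Atf5, a factor related to ATF4 and linked to mitochondrial protein stress, came next with 80.5 ± 5.89 in RV nPAB, 91.1 ± 16.5 in RV Sham, 89.5 ± 19.1 in LV nPAB and 94.5 ± 7.76 in LV Sham. A middle tier of Ppp1r15a, Atf3, Cebpb, Ddit3 and Asns followed with group means between 11.9 and 50.4 per kb, and neighbours in that tier overlapped in every group. The order within it differed between groups, with Ppp1r15a and Atf3 at rank 3 and 4 of 10 in RV nPAB, where Ddit3 had rank 6, while in RV Sham Ppp1r15a had rank 4, Atf3 rank 7 and Ddit3 rank 3. Chac1, Trib3 and Sesn2 were the lowest members in all groups, with means between 1.49 and 9.10 per kb, and each overlapped its neighbour in the order.

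**Figure D2:**
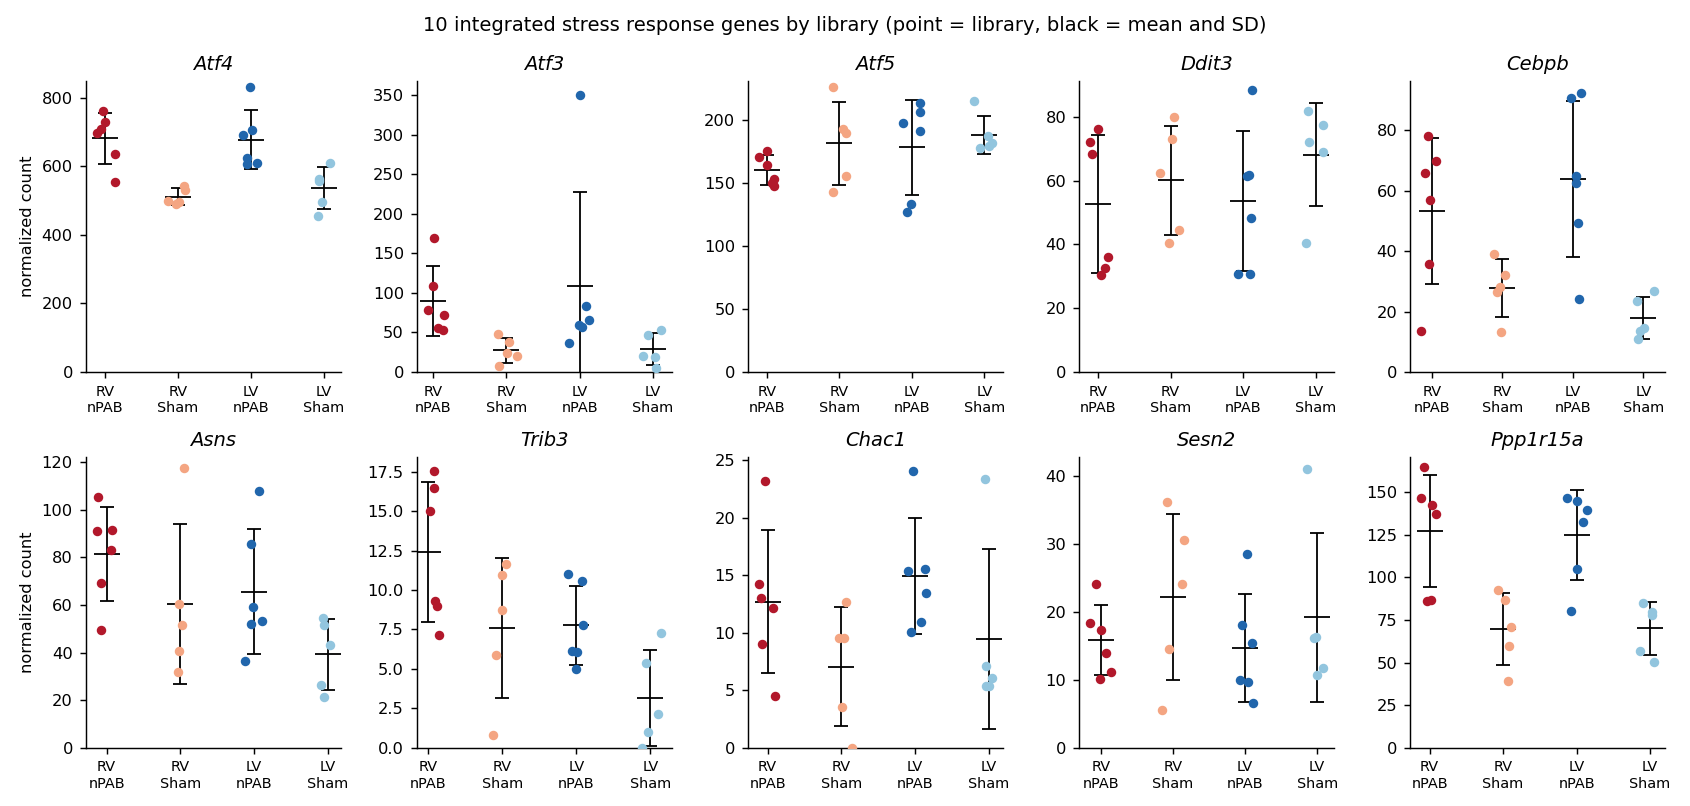
Normalized count of each of the 10 genes in every library (points), with the mean and SD of each group in black, the RV groups left of the LV groups and nPAB left of Sham. Atf4 and Atf3 in the RV are the genes whose 6 nPAB points all lie above all 5 Sham points. The lower SD bar of Atf3 in LV nPAB ends at the axis, since the SD of 119 is larger than the mean of 109.

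The first comparison asked how the genes of this response changed in the RV, the ventricle that works against the band. With limma on log2 of the normalized count plus 1, 3 of the 10 members rose in RV nPAB against RV Sham (Atf3, Atf4 and Ppp1r15a), 0 fell and 7 did not pass a Benjamini-Hochberg adjusted p of 0.05. Across all 13660 genes tested, 22% passed in either direction and 11.1% were higher, so the count of 3 stands beside a large background. At an unadjusted p under 0.05, the same 3 members passed, beside 4619 genes or 33.8% of those tested. edgeR called 3 members and 2973 genes, and DESeq2 3 members and 3354 genes. The median log2 fold change of the 10 members was 0.67, against 0.00 over all genes tested. It includes Trib3 and Chac1, whose RV Sham means of 7.61 and 7.05 were under the mean of 10 needed for a test. Both were tested only through their nPAB values, which favours a positive change.

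Atf3, a stress-induced factor that also belongs to the immediate early genes, is on chromosome 1 (mm10, 191170296 to 191218039, minus strand). Its normalized count was lowest at 53.0, with a median of 75.2 and a highest value of 170.0, in the 6 RV nPAB libraries. In RV Sham it was 7.43, 19.7, 24.6, 47.7 and 37.6. Every banded library was above every Sham library, and nPAB mouse 10 was the highest and Sham mouse 9 the lowest. The means were 89.7 ± 44.2 in RV nPAB and 27.4 ± 15.6 in RV Sham (SD), a ratio of 3.27, with a log2 fold change of 1.78 ± 0.40 (SE; limma, adjusted p = 0.00483). Without nPAB mice 6 and 7 the log2 fold change was 1.98 (adjusted p = 0.00814).

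Atf4, the central factor of the response (chromosome 15, 80255184 to 80257541, plus strand), had 554 at its lowest, a median of 704 and 763 at its highest in RV nPAB. In RV Sham it had 532, 489, 497, 499 and 542 normalized counts. The groups did not overlap, although the lowest banded library, from mouse 8, lay just above the highest Sham library. The change was small beside that of Atf3, with means of 682 ± 75.2 in RV nPAB and 512 ± 23.7 in RV Sham, a ratio of 1.33 and a log2 fold change of 0.41 ± 0.09 (SE; limma, adjusted p = 0.00387). Atf3 and Atf4 were the 2 members whose groups did not overlap, against 12.9% of all genes tested in either direction and 6.84% with nPAB above Sham.

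Ppp1r15a encodes GADD34, the inducible phosphatase subunit that directs protein phosphatase 1 to eIF2 and so closes the feedback loop (chromosome 7, 45522916 to 45526268, minus strand). In RV nPAB it had 86.1 at its lowest, a median of 139.7 and 165 at its highest. In RV Sham it had 71.2, 39.5, 86.5, 92.4 and 59.9. Of the 6 banded libraries, 4 were above all Sham libraries, and those of mice 7 and 8 fell within the Sham range. Means were 127 ± 33.0 in RV nPAB and 69.9 ± 21.3 in RV Sham, with a log2 fold change of 0.87 ± 0.24 (SE; limma, adjusted p = 0.0125).

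The other 3 transcription factors did not pass in the RV. Cebpb, which encodes C/EBPβ, a factor of inflammation and differentiation that can pair with ATF4, averaged 53.3 ± 24.3 in RV nPAB and 27.8 ± 9.46 in RV Sham (log2 fold change 0.80, limma adjusted p = 0.168). Its banded libraries were split: 4 lay above all Sham libraries at 57.0 to 78.0, while mouse 5 had 35.6 and mouse 11 had 13.5. Without nPAB mouse 11 the log2 fold change was 1.14 and passed (adjusted p = 0.0141), and without mice 6 and 7 it was 0.47 (adjusted p = 0.493). Atf5 had 148 to 176 in RV nPAB and 143 to 226 in RV Sham, with a log2 fold change of -0.16 (95% interval -0.45 to 0.13, adjusted p = 0.453). Ddit3, which encodes CHOP, a factor linked to cell death under prolonged stress, had 30.3 to 76.3 in RV nPAB and 40.6 to 79.8 in RV Sham. The banded libraries formed a low set of 3, from mice 6, 7 and 8, all below the Sham range, and a high set of 3 inside it. Its log2 fold change was -0.25 (adjusted p = 0.601), and it was 0.06 without mice 6 and 7.

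Among the response genes, Asns, the enzyme that makes asparagine, had 49.3 to 105 in RV nPAB, with a median of 87.0, and 31.9, 40.6, 117, 60.3 and 51.6 in RV Sham. Sham mouse 11 was the highest of all 11 libraries. The log2 fold change was 0.54 ± 0.29 (SE; limma, adjusted p = 0.198), and without Sham mouse 11 it was 0.81 (adjusted p = 0.0313) and without Sham mouse 9 it was 0.35 (adjusted p = 0.433). Trib3, a pseudokinase induced by ATF4 and CHOP, had 7.13 to 17.6 in RV nPAB and 0.794 to 11.7 in RV Sham (log2 fold change 0.84, adjusted p = 0.288), and without Sham mouse 11 its log2 fold change was 0.35. Chac1, which breaks down glutathione, had 4.49 to 23.1 in RV nPAB and 0 to 12.6 in RV Sham (log2 fold change 1.09, 95% interval -0.26 to 2.44, adjusted p = 0.248). The library at 0, of Sham mouse 10, held 0 reads, which allows up to 3.29 normalized counts, and without it the log2 fold change was 0.45. Sesn2, a sestrin that restrains mTORC1, had 10.1 to 24.1 in RV nPAB and 5.56 to 36.1 in RV Sham (log2 fold change -0.29, adjusted p = 0.695, and -0.68 to -0.06 when 1 mouse was left out, lowest without Sham mouse 11 and highest without Sham mouse 9). These 3 low genes rested on 4 to 26 reads per library in RV nPAB and 0 to 34 in RV Sham, and their standard errors were 0.43 to 0.64, beside 0.24 for Ppp1r15a.

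**Figure D3:**
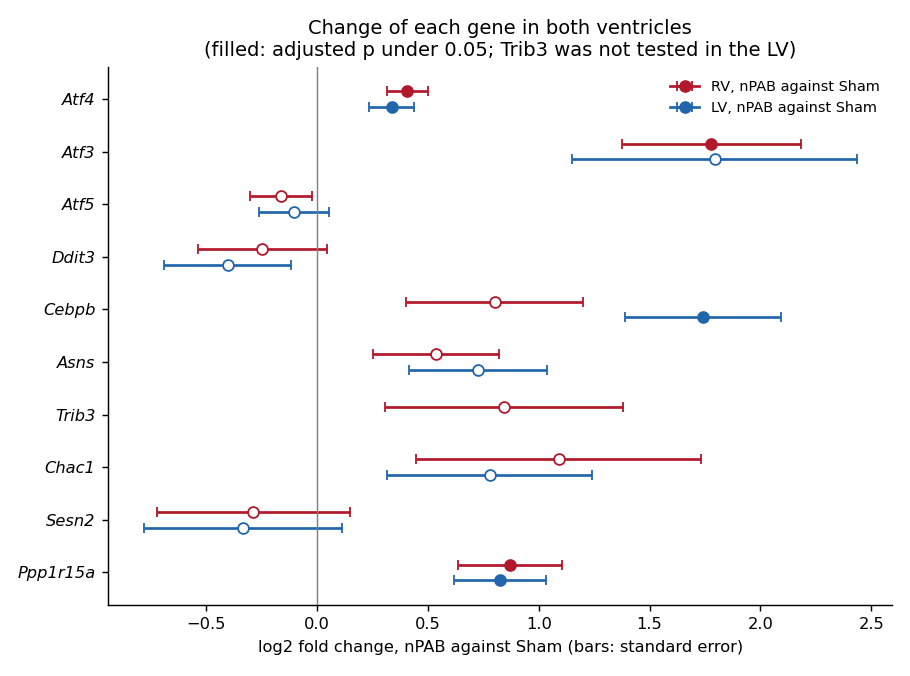
Log2 fold change of each gene, nPAB against Sham, in the RV (red) and the LV (blue), with bars of 1 standard error from limma, where a filled point passed the adjusted p of 0.05. Atf4 and Ppp1r15a are filled in both ventricles, Atf3 in the RV and Cebpb in the LV, and of the 9 genes tested in both ventricles, Cebpb is the one whose bars do not overlap.

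The second comparison asked the same of the LV, which does not pump against the band. Again 3 members rose in LV nPAB against LV Sham (Cebpb, Ppp1r15a and Atf4), 0 fell and 6 did not pass, and Trib3 was too low to be tested. Of all 13528 genes tested, 9.31% passed in either direction and 4.76% were higher. At an unadjusted p under 0.05, 5 members passed, all higher, beside 3334 genes or 24.6% of those tested. edgeR called 2 members and 1204 genes, and DESeq2 3 members and 1680 genes. The median log2 fold change of the 9 members tested was 0.73, against -0.01 over all genes. Chac1 is included, although its LV Sham mean of 9.46 was under the mean needed for a test. It was tested only through its nPAB values, which favours a positive change.

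Cebpb (chromosome 2, 167688915 to 167690418, plus strand) had 24.2 at its lowest, a median of 63.6 and 92.2 at its highest in LV nPAB. In LV Sham it had 13.6, 14.5, 23.3, 26.9 and 10.8 normalized counts. All banded libraries but that of mouse 11 were above all Sham libraries, and mouse 11 was also the lowest banded library in the RV. Means were 63.9 ± 25.7 in LV nPAB and 17.8 ± 6.92 in LV Sham, a ratio of 3.58, with a log2 fold change of 1.74 ± 0.35 (SE; limma, adjusted p = 0.00438). Without nPAB mice 6 and 7 it was 1.55 (adjusted p = 0.0370).

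Ppp1r15a had 80.3 at its lowest, a median of 136 and 147 at its highest in LV nPAB, against 77.9, 56.8, 85.3, 50.6 and 79.7 in LV Sham. The library of nPAB mouse 5 lay within the Sham range and the other 5 lay above it. The log2 fold change was 0.82 ± 0.21 (SE; limma, adjusted p = 0.0168), and the call was lost without nPAB mice 6 and 7 (0.71, adjusted p = 0.0930) and without Sham mouse 12 (adjusted p = 0.0520). Atf4 had 608 at its lowest, a median of 658 and 830.4 at its highest in LV nPAB, against 497, 455, 556, 611 and 563 in LV Sham. Of the banded libraries 4 were above all Sham libraries, with Sham mouse 12 reaching into the banded range. Its log2 fold change was 0.34 ± 0.10 (SE; limma, adjusted p = 0.0447), and the call held in 8 of 20 alternative settings, with an adjusted p of 0.0267 to 0.125 over them.

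Atf3 did not pass in the LV although its mean ratio was 3.78. It had 36.9 at its lowest, a median of 62.4 and 349.8 at its highest in LV nPAB, and 20.5, 4.83, 52.8, 19.4 and 46.3 in LV Sham. Mouse 10 stood far above the other banded libraries, while 5 of 6 banded libraries were above all Sham libraries and the libraries of both groups spread widely. The log2 fold change was 1.79 ± 0.64 (SE; limma, adjusted p = 0.105), 1.37 without nPAB mouse 10, and it did not pass in any of 20 alternative settings (adjusted p 0.0547 to 0.202). Members with groups that did not overlap numbered 0 in the LV, against 6.53% of all genes tested in either direction and 3.38% with nPAB above Sham.

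The remaining LV values were as follows. Asns averaged 65.6 ± 26.2 in LV nPAB and 39.3 ± 14.9 in LV Sham, and 3 of 6 banded libraries were above all Sham libraries (log2 fold change 0.73, limma adjusted p = 0.151, and 0.41 without nPAB mice 6 and 7). Chac1 had 10.0 to 24.1 in LV nPAB and 5.38 to 23.4 in LV Sham (0.78, adjusted p = 0.312). Only Sham mouse 9 kept the Chac1 groups from lying apart, as its library had 23.4 and the next Sham library had 7.11. Atf5 at -0.10 (adjusted p = 0.735), Ddit3 at -0.40 (adjusted p = 0.414) and Sesn2 at -0.33 (adjusted p = 0.696) had negative log2 fold changes that did not pass. Trib3, with a mean of 5.67 over the LV libraries, had 4.98 to 11.0 in LV nPAB and 0 to 7.25 in LV Sham. Its LV Sham library at 0 held 0 reads, which allows up to 2.92 normalized counts.

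**Figure D4:**
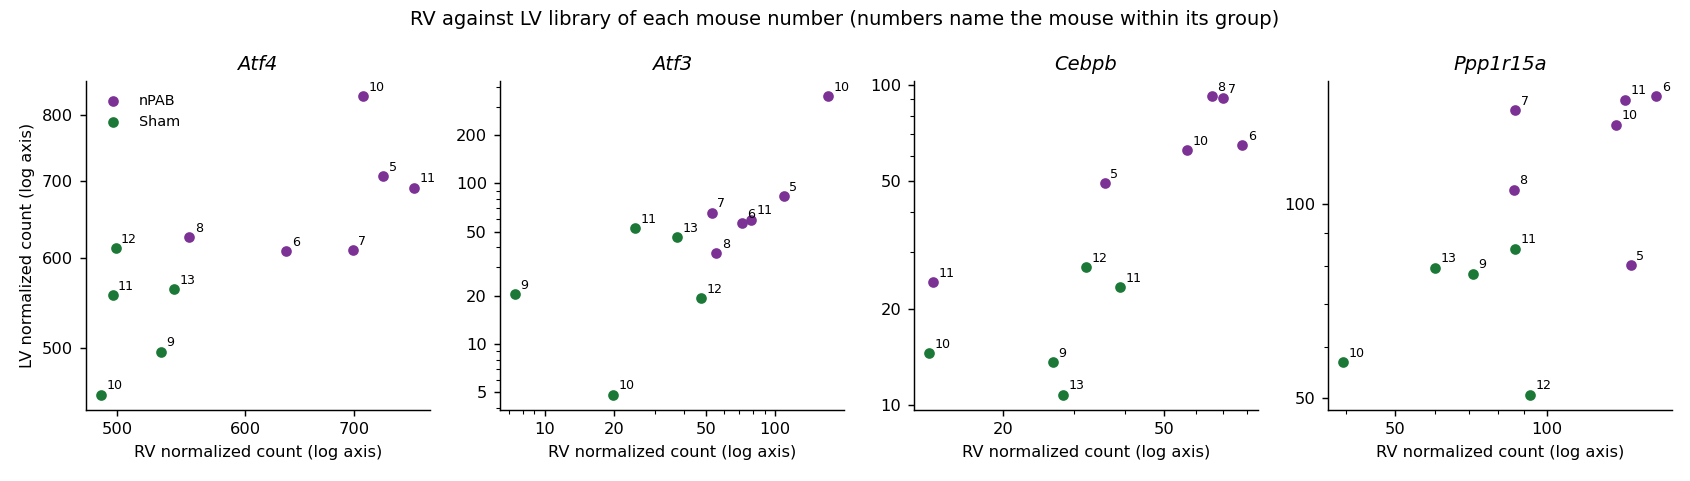
RV against LV normalized count of the 4 genes that passed a test, on log axes, with 1 point per mouse number (purple nPAB, green Sham). For Cebpb, nPAB mouse 11 lies near the Sham mice in both ventricles, and for Atf3, nPAB mouse 10 is the highest in both. The pairs of nPAB mice 6 and 7 do not join libraries of 1 animal.

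The third comparison asked whether the response to banding differed between the ventricles, as log2 RV minus log2 LV within a mouse number, nPAB against Sham. For nPAB mice 6 and 7 this difference does not join libraries of 1 animal. Without these mice more genes passed than in the main fit below, though no member did. With limma, 0 of the 9 members tested passed an adjusted p of 0.05, against 0.00748% of all 13364 genes tested, which is 1 gene. At an unadjusted p under 0.05, 1 of the 9 members passed, beside 1474 genes or 11.0% of those tested, so this count is near the background. edgeR with mouse as a block called 0 members and 158 genes. The 1 member was Cebpb, whose change was smaller in the RV than in the LV by a log2 difference of -0.94 (95% interval -1.51 to -0.37, unadjusted p = 0.00382, adjusted p = 0.260), so it failed the correction. Without nPAB mice 6 and 7 this difference was -1.08 (adjusted p = 0.159). The difference for Atf4 was 0.07 (95% interval -0.18 to 0.32), for Ppp1r15a 0.05 (-0.59 to 0.69) and for Atf3 -0.01 (-1.26 to 1.23). The interval for Atf4 is narrow beside that for Atf3, which spans a more than 2-fold difference in either direction. So the call of Atf3 in the RV and not in the LV, and of Cebpb in the LV and not in the RV, was not shown to be a difference between the ventricles.

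In Sham mice, the RV and LV levels of the members were also compared within mice, against the median gene since the tables were normalized separately. With limma, 0 of 9 members and 0% of all 13364 genes passed. At an unadjusted p under 0.05, 1 of 9 members passed, beside 1123 genes or 8.40% of those tested, so this count is near the background. edgeR with mouse as a block called 0 members and 82 genes. Cebpb was again the 1 member, with 26.6, 13.2, 38.9, 32.1 and 28.2 in RV Sham beside 13.6, 14.5, 23.3, 26.9 and 10.8 in LV Sham. It was higher in the RV in 4 of 5 mice, with a log2 difference of 0.58 (95% interval 0.16 to 1.00, unadjusted p = 0.0113, adjusted p = 0.445). The Cebpb values of the same Sham libraries enter both this difference and the one between ventricles above.

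Some members share exon sequence with a gene on the opposite strand, and it is not known whether reads were assigned by strand. Cebpb overlaps Tmem189 (up to 553 normalized counts in the RV and 521 in the LV), Atf5 overlaps Nup62 (up to 378 and 358), and Ddit3 overlaps Mars (up to 589 and 487). Reads of these pairs could have been lost or shared, so the levels of these 3 members are uncertain. Ppp1r15a overlaps Tulp2, which reached at most 4.70 normalized counts.

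The wider pathway was read from lists of 61 other genes of this response or linked to it. Apart from them, 23 genes of the ER and the mitochondria were read, mostly chaperones and proteases, with the ATF6 and IRE1 arms. Of the other response genes, 17 of 55 tested were higher and 1 lower in the RV (30.9% and 1.82%), beside 11.1% higher and 10.8% lower over all genes. In the LV 7 of 54 were higher and 1 lower (13.0% and 1.85%), beside 4.76% and 4.55%. Of the 23 ER and mitochondrial genes, 0 were higher and 5 lower in the RV, and 0 were higher and 2 lower in the LV. All these lists together had 17 of 78 tested higher and 6 lower in the RV (21.8% and 7.69%). In the LV they had 7 of 77 higher and 3 lower (9.09% and 3.90%). Of the eIF2 kinases and the mitochondrial relay that feeds them, 1 of 6 rose in the RV, the heme-regulated kinase Eif2ak1 (log2 fold change 0.44, limma adjusted p = 0.00770), and 0 passed in the LV. Of the genes for eIF2, its exchange factor eIF2B and the constitutive phosphatase subunit, 3 of 9 rose in the RV: the eIF2 subunits Eif2s2 (0.31) and Eif2s1 (0.22) and the eIF2B subunit Eif2b5 (0.46). In the LV 1 of 9 rose, Eif2s2 again (0.34).

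Amino acid genes that passed were all higher. Slc7a5, the light chain of a large neutral amino acid transporter, averaged 125 in RV nPAB and 38.3 in RV Sham, and the groups did not overlap (log2 fold change 1.68 ± 0.21 SE, limma adjusted p = 2.13e-05). The serine and one-carbon enzymes Shmt2 (0.64) and Psat1 (0.46) rose too, and 9 of the 12 genes tested did not pass in the RV. In the LV Slc7a5 (1.03) and its partner chain Slc3a2 (0.80) rose, and 10 of 12 did not pass. Among aminoacyl-tRNA synthetases and the tRNA exporter, 4 of 13 rose in the RV, Eprs (0.36), Gars (0.38), Mars (0.35, which overlaps Ddit3) and Nars (0.28), and 1 of 13 in the LV, Gars (0.35).

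Of the other ATF4- or CHOP-linked stress genes, 5 of 11 rose and 1 fell in the RV. Among the 5, Gdf15 averaged 18.0 in RV nPAB and 3.29 in RV Sham. It reached the mean of 10 needed for a test only through the nPAB group, and it was not tested in the LV. Ddit4, an mTORC1 inhibitor that is also induced by hypoxia and glucocorticoids, averaged 537 in RV nPAB and 205 in RV Sham (log2 fold change 1.36). Ndrg1 (0.97) and the ER oxidase Ero1l (0.67), both also known as hypoxia-induced, rose, and the growth arrest gene Gadd45a fell (-0.96). In the LV 2 of 10 rose, Ddit4 (1.44) and Ndrg1 (0.99), and the lipoprotein receptor Vldlr fell (-0.41). Of the dimer partners and other C/EBP factors, 1 of 4 tested rose in each ventricle, Cebpd, which encodes C/EBPδ. It averaged 180.3 in RV nPAB and 70.0 in RV Sham (1.39, adjusted p = 0.00176), and 199 in LV nPAB and 64.0 in LV Sham (1.58, adjusted p = 2.49e-04), and in both ventricles the groups did not overlap.

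Genes for endoplasmic reticulum chaperones and the ATF6 and IRE1 arms of the unfolded protein response were lower where they passed. The 16 genes include Atf6, Xbp1, Ern1, Edem1 and Herpud1, which do not encode chaperones. In the RV 0 of 16 were higher and 4 lower: the chaperones Hspa5 (-0.37), Calr (-0.45), Dnajb9 (-0.49) and Hsp90b1 (-0.23). In the LV 0 of 16 were higher and 2 lower, Hspa5 (-0.37) and Hsp90b1 (-0.27). Hspa5, which encodes the chaperone BiP, averaged 3745 in RV nPAB and 4877 in RV Sham (limma, adjusted p = 0.00439), and the libraries of the groups overlapped. Of 7 mitochondrial chaperones and proteases, Clpx was lower in the RV (-0.26, adjusted p = 0.0368) and 0 passed in the LV.

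**Figure D5:**
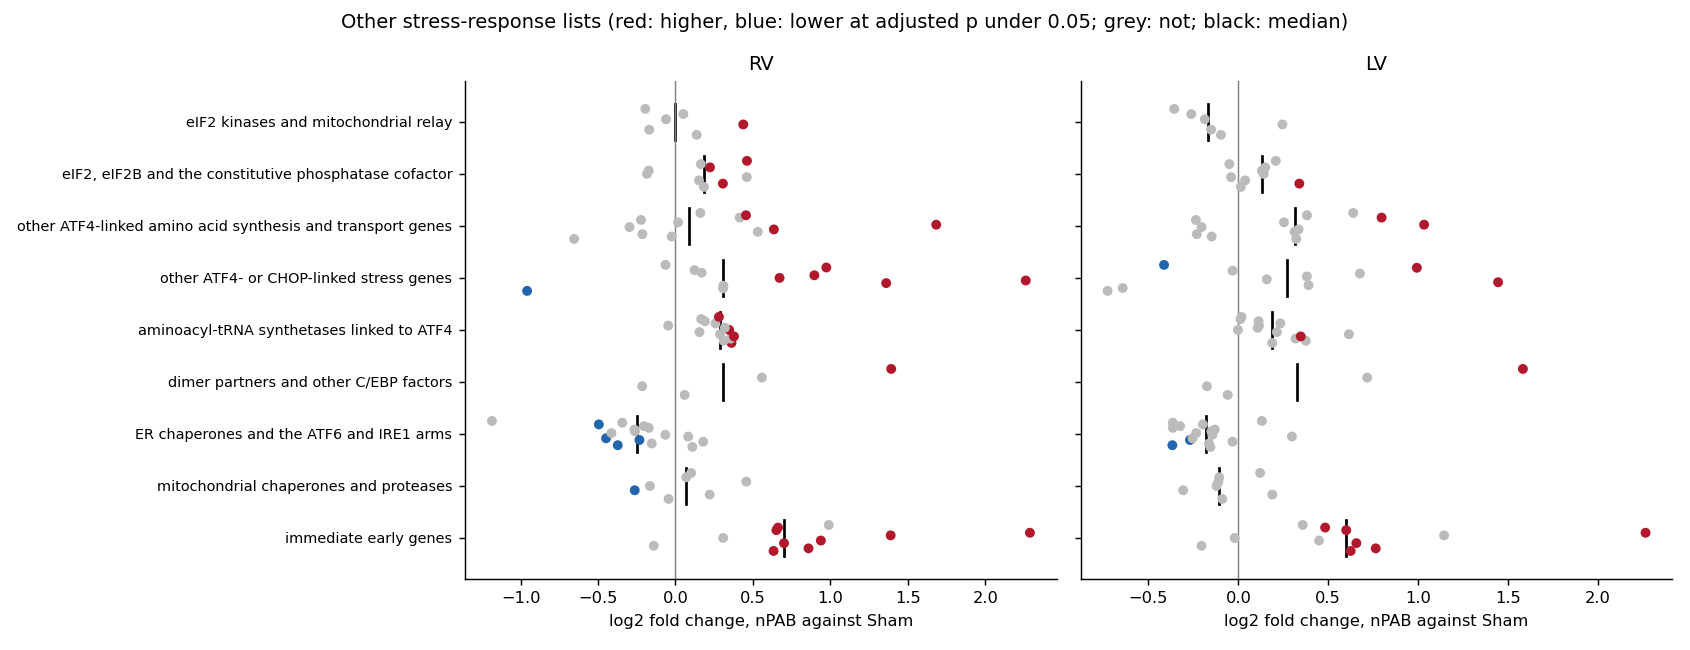
Log2 fold change, nPAB against Sham, of each gene in 9 lists of the response and its neighbours, in the RV (left) and the LV (right), with higher calls in red, lower calls in blue, genes that did not pass in grey and the median of each list as a black bar. In the RV 8 of 11 immediate early genes are red and 4 of 16 genes in the list of ER chaperones and the ATF6 and IRE1 arms are blue.

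Immediate early genes, which respond to many stimuli within minutes, are given beside the members because Atf3 is one of them. In the RV 8 of 11 tested rose and 0 fell, beside 11.1% higher and 10.8% lower over all genes tested. In the LV 6 of 11 rose and 0 fell, beside 4.76% and 4.55%. Klf4 and Nr4a1 were among those that rose in both ventricles. The 8 include Fos, whose RV Sham mean of 8.39 was under the mean of 10 needed for a test. The orphan nuclear receptor Nr4a1 averaged 192 in RV nPAB and 40.5 in RV Sham (2.29), and 179 in LV nPAB and 34.0 in LV Sham (2.26), all log2 fold changes in brackets. The summed level of the 12 genes was 3130 to 4576 in RV nPAB and 1982 to 3028 in RV Sham, and 2632 to 3975 in LV nPAB and 2089 to 2900 in LV Sham. The LV library of nPAB mouse 10, highest for Atf3, was also the highest for Nr4a1, at 336. Their part in the results for the members was not tested.

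Markers of other cell types were read from the same tables. Over all genes tested, 11.1% were higher and 10.8% lower in the RV, and 4.76% and 4.55% in the LV. Macrophage markers called numbered 0 of 5 in either ventricle, with sums of 777 to 1077 in RV nPAB and 747 to 1350 in RV Sham. For neutrophils 1 of 3 markers tested rose in the RV, Retnlg (log2 fold change 1.97), with sums of the 5 markers of 238 to 455 in RV nPAB and 157 to 385 in RV Sham. Retnlg averaged 22.0 in RV nPAB and 5.43 in RV Sham. It reached the mean needed for a test only through the nPAB group. Fibroblast markers had sums of 17919 to 29157 in RV nPAB and 26767 to 34958 in RV Sham, and 1 of 5 was lower, Pdgfra (-0.45). Dcn did not pass (-0.46, limma adjusted p = 0.117), although all its RV nPAB libraries were below all RV Sham libraries. LV fibroblast sums were 19187 to 30349 in nPAB and 22489 to 25820 in Sham, with 0 of 5 called. Endothelial and mural markers had 0 called in either ventricle. In the LV 0 macrophage and 0 neutrophil markers were called, with macrophage sums of 615 to 1442 in LV nPAB and 735 to 1028 in LV Sham and neutrophil sums of 282 to 387 in LV nPAB and 144 to 515 in LV Sham. Of the erythroid markers 1 of 4 rose in the RV, the globin gene Hbb-bt (log2 fold change 0.64, adjusted p = 0.0221), and 0 were called in the LV. Their sums were 9842 to 16704 in RV nPAB and 9082 to 14569 in RV Sham, and 10823 to 15785 in LV nPAB and 5388 to 13333 in LV Sham. Of 6 cardiomyocyte markers, Actc1 rose in both ventricles (0.47 in the RV and 0.32 in the LV), and Tnni3 (-0.26) and Ryr2 (-0.32) were lower in the RV. Markers of atrial muscle had 0 of 4 called in either ventricle, but their sum ran from 975 to 9937 in RV nPAB and from 375 to 2697 in RV Sham. It ran from 510 to 2287 in LV nPAB and from 715 to 1715 in LV Sham. In none of these lists was a marker at 0 in all libraries, and their part in the results was not tested.

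The genes whose pattern over the 11 libraries of a table was closest to that of Atf3 and Atf4 were found by the root mean square distance between standardised log2 profiles, where the median over all genes tested was 1.34 to 1.36. In the RV the closest to Atf3 were the cardiac actin gene Actc1 (0.319), Cox19 (0.330) and the phosphatase gene Dusp8 (0.341). Closest to Atf4 in the RV were the small heat shock protein gene Hspb7 (0.226), the lamin gene Lmna (0.276) and Cipc (0.310). In the LV the closest to Atf3 were Napa (0.284), Rab3a (0.382) and Nuak1 (0.398), and the closest to Atf4 were the leiomodin gene Lmod2 (0.289), the cochaperone gene Dnajb4 (0.309) and Otud1 (0.355). None of these genes was among the 3 closest in both ventricles. The libraries compared share the 2 groups, so genes that separate nPAB from Sham in the same direction tend to have a short distance to each other. In the LV, Napa (log2 fold change 0.14, limma adjusted p = 0.382) and Rab3a (0.37, limma adjusted p = 0.137) did not pass.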

How the data were processed

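Per the labels' protocols, total RNA was extracted on Qiagen RNeasy Plus columns and made into libraries by a Revelo high-sensitivity kit. Cutadapt, featureCounts and DESeq2 and the build mm10 are named in the submitters' processing notes. The aligner, like any version or strand setting, is not given in the sources used here. Deposited values are a signal, one table per ventricle, made by the authors by dividing gene counts by DESeq2 size factors. Divided by what 1 read is worth in its library, 100% of values came out whole (tolerance 0.001). The reads recovered in this way gave the depth, and edgeR and DESeq2 were run on them as alternatives only. Floors (3 reads per library) cover counting error only, while 95% intervals are those of limma over libraries. The header line holds 2 empty cells that the rows lack, which were passed over when sample names were matched to values.

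The model was limma 3.58.1 under R 4.3.3, with the trended and robust eBayes variance, fitted to log2 of the value plus a pseudocount of 1. Genes whose mean over a table was under 10 were left out. P-values are two-sided and were adjusted by Benjamini-Hochberg across every gene in the fit. Fold changes of low genes depend on the pseudocount. Ventricles were compared by differences within a mouse. RV and LV libraries are paired by the number in the titles. As a check, deviations from the group means were correlated between the 2 libraries of a mouse: r was 0.0548 in nPAB mouse 7 and 0.172 in nPAB mouse 6, under the highest r with another mouse (0.0844 and 0.180), and 0.132 to 0.383 in the other 9, above it. Libraries of the same group all differed by more than counting noise, with a chi-square per degree of freedom of at least 7.47. Replicates are numbered animals, and litters are not stated.

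The members, the lists and the tests were chosen with earlier results of these data known. All members are named, with up to 4 called genes of smallest adjusted p per other list and ventricle, and the 3 genes nearest to Atf3 and Atf4. Alternatives changed the pseudocount (0.5 and 5), filter, variance model, scaling, sex term and tool, and left out each mouse, or nPAB mice 6 and 7 together. They were read for the members and the counts of genes called, and not for the other lists, markers or closest profiles. The tests were tried on simulated data. Figures were drawn with matplotlib 3.10.9, and the count tools were DESeq2 1.42.0 and edgeR 4.0.16. Promoter sequences are from RefSeq, build GRCm38.p6.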

Additional observations from a re-analysis of the deposited data

Results flagged for a closer look

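In 4 of the 40 gene and group combinations looked at, 1 library lay far from the others of its group by Dixon's test, which chance flags in about 1 in 20 groups. Atf3 was at 349.8 normalized counts in the LV library of nPAB mouse 10, and the next LV nPAB library was at 83.3. Chac1 was at 23.4 in the LV library of Sham mouse 9, and the next LV Sham library was at 7.11. Atf5 was at 215 in the same LV Sham library of mouse 9, against 187 in the next. Sesn2 was at 41.1 in the LV library of Sham mouse 10, against 16.2 in the next. No RV library was set apart in this way, and the cause of these values was not tested.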

How the results depend on the processing

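In the RV, Atf3 (log2 fold change 1.40 to 2.03), Atf4 (0.37 to 0.46) and Ppp1r15a (0.68 to 0.99) passed in 20 of 20 alternatives, and so did Cebpb in the LV (1.54 to 1.99). In the LV, Ppp1r15a passed in 18 of 20, Atf4 in 8 and Atf3 in 0. Genes called in the LV, 1260, were 739 without the trend and robust options and 670 without nPAB mice 6 and 7. For the difference between ventricles, 1 gene passed, against 0 with a pseudocount of 0.5, 0 with a sex term, 29 without mice 6 and 7, 158 with edgeR and mouse as a replicate block, 5 with no replicate block, and 0 to 20 when 1 mouse was left out. In Sham mice, 0 genes passed, against 1 without trend and robust options, 82 with edgeR and the block and 4 with no replicate block. No member passed in these 2 comparisons under any alternative. The nPAB and Sham mice are different animals, so no block joins them. Some small values changed sign. Without mice 6 and 7, Ddit3 in the RV was at 0.063, and the differences between ventricles of Asns (0.25), Atf3 (0.0061) and Atf5 (0.032) turned positive. With a pseudocount of 5 the differences of Atf3 and Sesn2 were 0.015 and -0.0053, and with edgeR and the block Atf3 was at 0.065 for the difference and -0.075 in Sham mice. When 1 mouse was left out, the differences ranged from -0.43 to 0.28 for Asns, -0.37 to 0.42 for Atf3, -0.15 to 0.042 for Atf5, -0.24 to 0.74 for Chac1, -0.090 to 0.41 for Ddit3, -0.12 to 0.27 for Ppp1r15a and -0.34 to 0.40 for Sesn2. In Sham mice the ranges were -0.40 to 0.40 for Atf3, -0.29 to 0.051 for Ppp1r15a and -0.24 to 0.49 for Sesn2. The cause of these changes was not tested. TMM scaling moved the median gene by under 0.1 on the log2 scale. Depth limits Trib3, Chac1 and Sesn2, which had at most 34 reads in a library.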
